A study of Homo sapiens with 4 samples.

Results

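The 10 genes described here encode parts of the actomyosin cytoskeleton: the smooth muscle actins ACTA2 and ACTG2, the transgelins TAGLN and TAGLN2, the calponins CNN1 and CNN2, the tropomyosins TPM1 and TPM2, the myosin regulatory light chain MYL9, and filamin A, FLNA. They were taken by name as contractile genes of the kind that serum response factor (SRF) controls, and all 10 were found among the 60683 gene identifiers of the tables. RNA was measured in HCT116, an established cell line from a human carcinoma of the colon, stably transduced with a pSin lentivirus and kept in puromycin. One group of 2 libraries carried the empty vector and the other group of 2 carried FOXD2, which encodes a transcription factor of the forkhead family, as its full-length coding sequence. Whether the stable cells were a pool or 1 clone is not given in the labels.

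SRF binds a short DNA element, the CArG box, in the promoters of many cytoskeletal genes. Its partners of the myocardin family, MRTFA and MRTFB, are held back by free actin monomers and act once actin is assembled into filaments, while myocardin itself (MYOCD) belongs to smooth and cardiac muscle. Ternary complex factors such as ELK1 link SRF to growth factor signalling instead. ACTA2, ACTG2, TAGLN and CNN1 are classical markers of smooth muscle, whereas TAGLN2, CNN2, TPM1, TPM2 and FLNA are also made by many other cells, epithelial cells among them.

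Libraries held between 14231338 and 15535817 counts. FOXD2 itself was at 3.50 and 2.78 CPM (counts scaled to 1e+06 per library) with the empty vector and at 526.5 and 479.1 CPM with FOXD2, so every library matched its label. The epithelial genes EPCAM, CDH1, KRT8, KRT18 and KRT19 were present in all libraries, and the summed level of 10 colon epithelium markers was 4412 and 4545 CPM with the empty vector and 8346 and 7839 CPM with FOXD2. The intestinal markers VIL1 and LGALS4 had at most 6 counts in any library, and CDX1 had none. Most of the sum came from KRT8, KRT18 and KRT19, and the list did not move as one: of 7 genes tested, 5 were higher, the intestinal factor CDX2 was lower (-0.51, edgeR adjusted p = 0.001) and KRT20 did not pass (-0.97, edgeR adjusted p = 0.053). The part of these differences in epithelial markers in the results below was not tested. Across the transcriptome 14470 genes were tested, of which 27.2% were higher and 26.4% lower (edgeR adjusted p under 0.05).

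Of the 10 genes, ACTG2 and CNN1 were at or near 0, 2 rose (ACTA2 and TAGLN2), 3 fell (TAGLN, TPM2 and MYL9), and 3 did not pass the test (CNN2, TPM1 and FLNA; edgeR quasi-likelihood test, adjusted p under 0.05 over all 14470 genes tested). Of all genes tested, 27.2% were higher and 26.4% lower with FOXD2, 53.5% in either direction, so these counts are near the background and say nothing particular about the members. Levels were higher in both FOXD2 libraries than in both empty vector libraries for 3 members and lower in both for 3, beside 38.9% and 37.2% of all genes tested. The 8 tested members had at least 26 counts in every library, so none entered the test through 1 group alone. Their median log2 fold change was 0.08, beside 0.0084 over all genes tested. They are described below one by one, by their place in the filament.

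Short windows around transcript starts were searched for the element that gave the group its name. RefSeq windows from 250 bases before to 50 bases after a transcript start (GRCh38.p14) were matched for 8 members, with 12 start sites, but not for TAGLN and MYL9. A CArG box (CC, 6 letters that are each A or T, and GG, which reads the same way on both strands) was found in the windows of ACTG2, CNN2 and FLNA, that is in 3 of 12 windows, beside 1.29% of all 35116 windows. The members were taken by name as genes of the kind that SRF controls, so their higher share is not an independent finding. ACTA2 held 2 near matches with 1 core letter that is C or G, a form found in 6.94% of all windows. The segments are shown so that exact and near matches can be compared letter by letter. Capitals mark the motif, each sequence reads 5′ to 3′ on the strand of the gene, and longer flanks are given where no annotated exon was met.
ACTG2, chr2:73892888-73892917, plus strand: gaaaaaaccaCCTTATATGGtaatattgct
ACTG2, chr2:73892925-73892954, plus strand: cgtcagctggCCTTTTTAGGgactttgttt
ACTA2, chr10:88952795-88952934, minus strand: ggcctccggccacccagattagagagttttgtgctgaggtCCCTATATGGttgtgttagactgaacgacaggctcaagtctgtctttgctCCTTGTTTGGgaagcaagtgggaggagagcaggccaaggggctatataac
CNN2, chr19:1026479-1026568, plus strand: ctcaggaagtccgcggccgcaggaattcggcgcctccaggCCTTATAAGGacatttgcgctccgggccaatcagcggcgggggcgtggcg
FLNA, chrX:154374709-154374738, minus strand: ggcaattttaCCAATTAAGGctttctcgcc

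All of these boxes began between 71 and 121 bases before a start site. The forkhead motif GTAAACA, searched on both strands, was found in 1 of 12 member windows, at the upstream start of ACTA2, and in 3.42% of all windows. It lies 221 bases before that start, in a segment that overlaps 5 annotated exons. The gene of these exons was not determined here.
ACTA2, chr10:88991542-88991568, minus strand: ataaaaaacgGTAAACAagcctccaga
No match was found in the windows of TAGLN2, TPM1, TPM2 or CNN1. Among the 8 members with windows, exact CArG boxes were found for the silent ACTG2 and for CNN2 and FLNA, which did not pass. ACTA2, which rose, held 2 boxes with 1 core letter that is C or G. The line between exact and near matches is set by the pattern searched. It does not show that ACTA2 lacks sites for SRF. TAGLN and MYL9, which both fell, had no window. Sequence outside the windows was not searched, so boxes elsewhere would be missed. A match is a description of these letters and was not tested as a binding site.

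**Figure D1:**
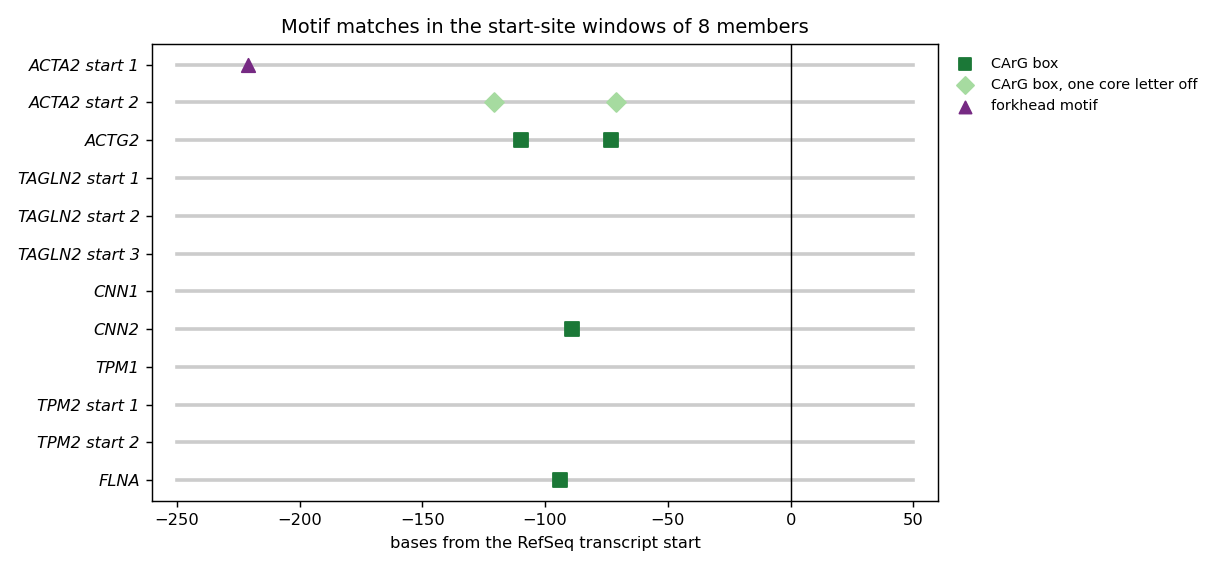
Positions of CArG boxes (squares), CArG boxes with 1 letter off in the core (diamonds) and forkhead motifs (triangle) from 250 bases before to 50 bases after each RefSeq transcript start of 8 members. The horizontal axis is the distance in bases from the start (vertical line). Boxes of ACTG2, CNN2 and FLNA and near matches of ACTA2 lie between 71 and 121 bases before a start.

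Actins form the filament. ACTA2, smooth muscle alpha-actin (chromosome 10, 88935074 to 88991339, minus strand, GRCh38), rose. It was at 3.79 and 4.11 CPM with the empty vector and at 9.32 and 7.58 CPM with FOXD2. Both FOXD2 libraries lay above both empty vector libraries, with the wider spread among the FOXD2 pair. The change was 2.14-fold (log2 fold change 1.10, SE 0.20, edgeR adjusted p = 5.4e-06), from 3.95 ± 0.224 to 8.45 ± 1.22 CPM (SD, n = 2 per group here and below). A larger absolute change was found for 9.85% of the genes tested. In bulk RNA, more cells that make a transcript and more transcript per cell cannot be told apart.

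ACTA2 stayed a trace actin. On the length-corrected scale of TPM (transcripts scaled to 1e+06 per library) it was at 5.62 and 5.70 with the empty vector and at 12.8 and 10.9 with FOXD2. The cytoplasmic gamma-actin ACTG1 was at 4793 and 5213 TPM with the empty vector and at 5580 and 4849 TPM with FOXD2. ACTA2 thus held 0.0812% ± 0.00284 of the summed TPM of 6 actins with the empty vector and 0.171% ± 0.00244 with FOXD2. The sum of the actins was 6979 ± 313.6 TPM and 6923 ± 677.9 TPM, a difference smaller than the spread between replicates.

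ACTG2, smooth muscle gamma-actin (chromosome 2, 73892314 to 73919865, plus strand), had 0 counts in all 4 libraries, which allows up to 3 counts, or 0.193 to 0.215 CPM. The cardiac actin ACTC1 also had 0 counts, and the skeletal actin ACTA1 had 3 and 0 counts with the empty vector and 6 and 5 with FOXD2. Cytoplasmic beta-actin ACTB fell slightly, by 0.25 on the log2 scale (SE 0.06, edgeR adjusted p = 0.0011), a call that ended with DESeq2 (adjusted p = 0.081). ACTG1 differed by -0.04 (SE 0.07, edgeR adjusted p = 0.68) and changed sign with the setting. It passed as lower without FOXD2 replicate 1 (-0.18, edgeR adjusted p = 0.0042).

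Actin genes resemble each other, so shared reads were examined. The posterior standard deviation that RSEM gives to a count was at most 0.57 counts for ACTA2 and 0.82 counts for ACTB and ACTG1, small beside their counts. ACTA2 overlaps 3 genes on the other strand: STAMBPL1 along 40080 bases, ACTA2-AS1 along 5747 and FAS along 758. STAMBPL1 was lower with FOXD2 (-0.58, edgeR adjusted p = 0.0017), FAS was higher (0.30, edgeR adjusted p = 0.020), and ACTA2-AS1 had at most 4 counts in a library. Because the strand setting of the counting is not given in the sources used here, their part in the ACTA2 count was not tested.

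Transgelins bind along actin filaments, and here the 2 members moved in opposite directions. TAGLN, also called SM22-alpha, is the smooth muscle form, and TAGLN2 is the form of epithelial and blood cells. TAGLN (chromosome 11, 117199321 to 117204782, plus strand) was at 5.58 and 5.30 CPM with the empty vector and at 1.73 and 1.78 CPM with FOXD2. It fell by 1.63 on the log2 scale (SE 0.27, edgeR adjusted p = 1.1e-06), and was 3.09-fold lower, from 5.44 ± 0.198 to 1.76 ± 0.0297 CPM. Of the genes tested, 4.36% changed more. Its counts were 78 and 80 against 27 and 26.

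TAGLN2 (chromosome 1, 159918107 to 159925732, minus strand) was at 143.5 and 141.0 CPM with the empty vector and at 432.4 and 382.6 CPM with FOXD2. The groups were far apart relative to the spread within each. It rose 2.87-fold (log2 fold change 1.52, SE 0.06, edgeR adjusted p = 1.7e-27), from 142.3 ± 1.83 to 407.5 ± 35.2 CPM, and 5.07% of the genes tested changed more. The direction and the call of ACTA2, TAGLN and TAGLN2 were the same under all 14 alternatives run, with log2 fold changes between 0.93 and 1.24, between -1.74 and -1.32, and between 1.42 and 1.61.

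Because TAGLN2 is the abundant form, the family rose as a whole. The summed TPM of 3 transgelins was 159.2 ± 5.03 with the empty vector and 452.8 ± 32.5 with FOXD2, a ratio of 2.84. TAGLN held 3.28% and 3.35% of that sum with the empty vector and 0.322% and 0.347% with FOXD2. Within a library, TAGLN2 was 29.5 and 28.8 times TAGLN in TPM with the empty vector and 309.9 and 287.3 times with FOXD2. These ratios are loosely fixed by the few TAGLN counts. The intervals that RSEM gives for TAGLN were 4.38 to 9.03 and 4.27 to 7.93 TPM with the empty vector. With FOXD2 they were 1.42 to 4.43 and 1.37 to 3.95 TPM, the first of which overlaps those of the empty vector slightly. The neuronal form TAGLN3 had at most 1 count in a library.

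RSEM also reports the mean length of the transcripts of a gene, weighted by their estimated abundance. For TAGLN it was 1545 and 1473 bases with the empty vector and 1658 and 1769 bases with FOXD2, values that do not overlap but rest on few counts (exact permutation test, two-sided, p = 0.333, the smallest that 2 libraries against 2 allow). For TAGLN2 it lay between 1374 and 1375 bases in all 4 libraries. TAGLN shares 446 bases with PCSK7 on the other strand, which was higher with FOXD2 (0.41, edgeR adjusted p = 1.9e-04).

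**Figure D2:**
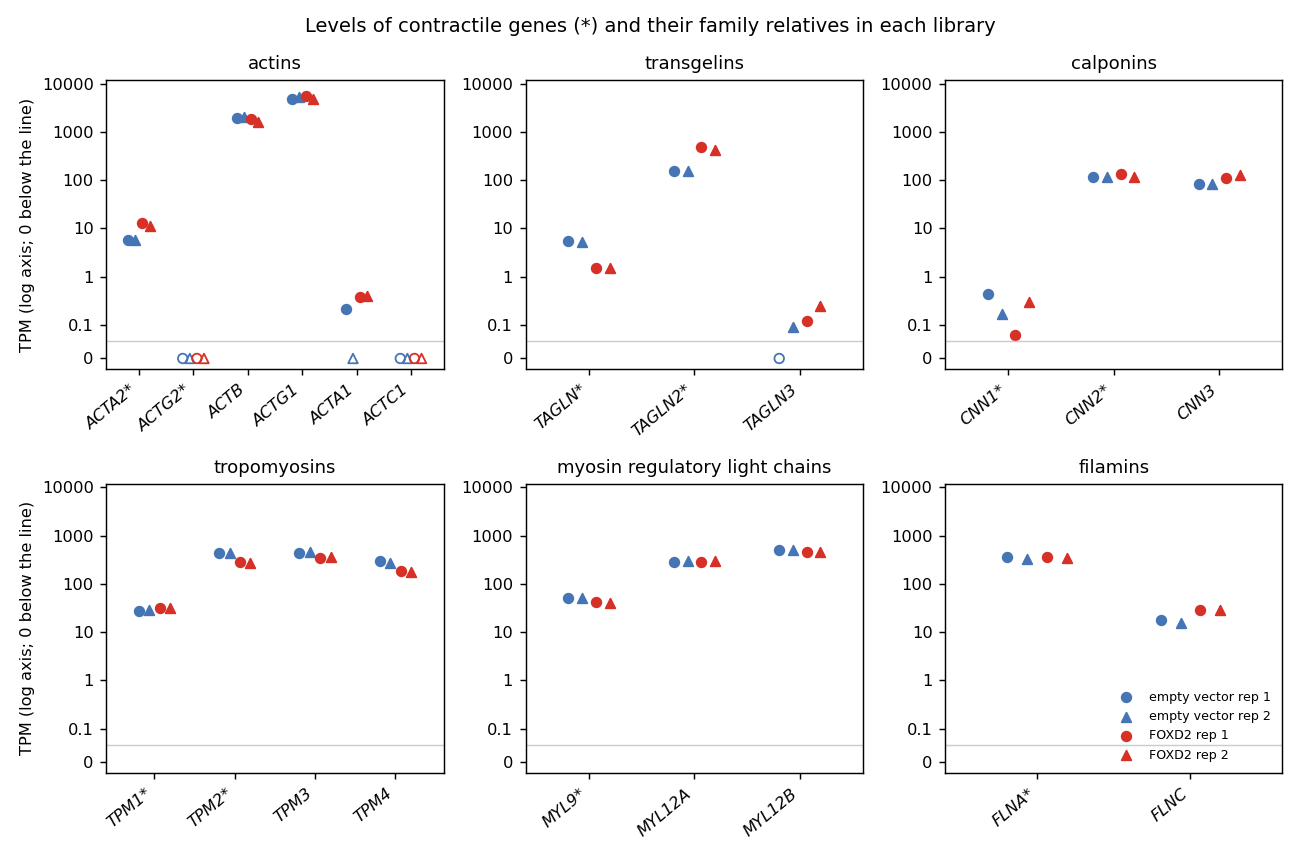
TPM of the members (asterisks) and of family relatives in each of 4 libraries, on a log axis, with values of 0 drawn as open symbols below the grey line. Blue marks the empty vector and red FOXD2, circles replicate 1 and triangles replicate 2. TAGLN2 and ACTA2 lie higher and TAGLN and TPM2 lower in both FOXD2 libraries, and ACTG2 is at 0 throughout.

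Calponins bind actin and hold back the myosin ATPase. CNN1, the smooth muscle form (chromosome 19, 11538717 to 11550323, plus strand), had 2 and 1 counts with the empty vector and 1 and 1 with FOXD2, below the limit of 3 counts, so no fold is given. CNN2 (chromosome 19, 1026581 to 1039068, plus strand) was at 166.4 and 172.1 CPM with the empty vector and at 195.3 and 171.6 CPM with FOXD2. The groups overlapped, and the log2 fold change of 0.12 (SE 0.06) did not pass (edgeR adjusted p = 0.12). It passed as higher without FOXD2 replicate 2 (0.21, edgeR adjusted p = 0.0046), and when library sizes alone were used for scaling (0.18, edgeR adjusted p = 0.016).

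The relative CNN3, the acidic calponin of non-muscle cells, rose by 0.48 on the log2 scale (SE 0.07, edgeR adjusted p = 2.6e-08), and its CPM went from 114.5 ± 2.35 to 159.5 ± 14.0. Of the TPM of 3 calponins, CNN2 held 58.0% and 58.8% with the empty vector and 55.2% and 47.9% with FOXD2. Its share was lower in both FOXD2 libraries, which differed by more than the empty vector pair.

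Tropomyosins lie in the groove of the filament and control the access of myosin and of other actin-binding proteins. TPM2, beta-tropomyosin (chromosome 9, 35681992 to 35690121, minus strand), was at 311.6 and 323.6 CPM with the empty vector and at 207.6 and 194.2 CPM with FOXD2. It fell by 0.66 on the log2 scale (SE 0.06, edgeR adjusted p = 2.9e-14), and was 1.58-fold lower. TPM1, alpha-tropomyosin (chromosome 15, 63042632 to 63071915, plus strand), was at 20.7 and 22.1 CPM with the empty vector and at 23.6 and 22.8 CPM with FOXD2. The values did not overlap, but lay close together (log2 fold change 0.12, SE 0.11, edgeR adjusted p = 0.37).

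TPM3 and TPM4, the tropomyosins most used outside muscle, fell with TPM2, by 0.40 (SE 0.05, edgeR adjusted p = 6.3e-09) and 0.69 (SE 0.06, edgeR adjusted p = 1.1e-15) on the log2 scale. TPM4 went from 524.7 ± 12.9 to 324.3 ± 22.1 CPM. The summed TPM of the 4 genes was 1201 ± 3.29 with the empty vector and 846.3 ± 15.6 with FOXD2, a ratio of 0.704. TPM1 held 2.36% ± 0.0994 of that sum with the empty vector and 3.75% ± 0.0143 with FOXD2, while the share of TPM2 was 36.5% ± 0.558 and 33.1% ± 0.702. TPM2 was 15.8 and 15.2 times TPM1 in TPM with the empty vector and 8.94 and 8.72 times with FOXD2.

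The mean transcript length of TPM1, a gene with 38 transcripts in the tables, was 1170 and 1155 bases with the empty vector and 1147 and 1162 bases with FOXD2, so the groups overlapped. That of TPM2 was 1127 and 1119 bases against 1131 and 1139 bases, separate but close. Lengths of this kind do not name the isoforms, which were not analysed here.

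**Figure D3:**
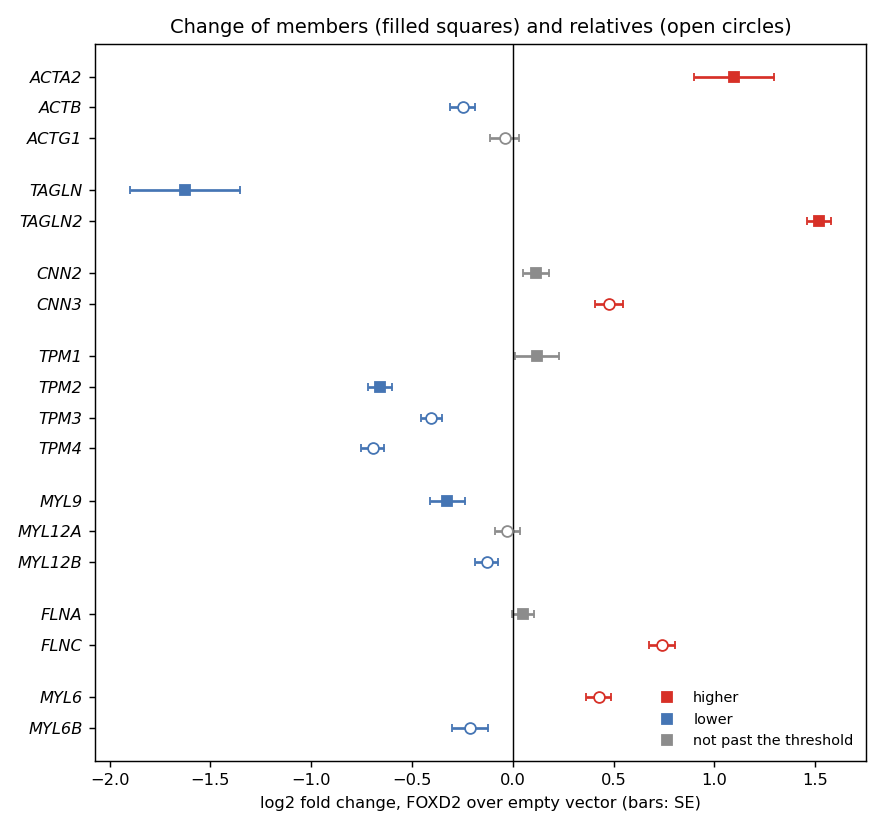
Log2 fold change of FOXD2 over empty vector for the tested members (filled squares) and of family relatives (open circles), with bars of 1 SE, grouped by family. Red marks genes past the threshold and higher, blue those lower, grey those that did not pass. TAGLN and TAGLN2 lie at opposite ends, at -1.63 and 1.52.

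MYL9 encodes a regulatory light chain of myosin II, whose phosphorylation switches on contraction. MYL9 (chromosome 20, 36541484 to 36551447, plus strand) was at 49.9 and 47.2 CPM with the empty vector and at 40.2 and 37.3 CPM with FOXD2. It fell by 0.32 on the log2 scale (SE 0.09, edgeR adjusted p = 0.0012), a 1.25-fold difference, and 49.5% of the genes tested changed more. The adjusted p stayed at or below 0.038 under the alternatives.

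MYL9 was the minor regulatory light chain. Of the TPM of MYL9, MYL12A and MYL12B it held 6.17% and 5.93% with the empty vector and 5.30% and 5.04% with FOXD2. MYL12A did not pass (-0.03, edgeR adjusted p = 0.73), and MYL12B was lower by a small amount (-0.13, edgeR adjusted p = 0.046) that did not pass under 9 of 14 alternatives. Of the essential light chains, MYL6 rose (log2 fold change 0.43, SE 0.06, edgeR adjusted p = 4.0e-08) and MYL6B was lower (-0.21, edgeR adjusted p = 0.037), a call that also ended under 9 of 14 alternatives.

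Filamins crosslink filaments into networks and tie them to the membrane. FLNA (chromosome X, 154348524 to 154374638, minus strand) had the most counts of the 10 genes, with 977.6 and 913.8 CPM with the empty vector and 1006 and 953.5 CPM with FOXD2. The groups overlapped, and the log2 fold change was 0.05 (SE 0.05, edgeR adjusted p = 0.43). It passed as higher only when library sizes alone were used for scaling (0.12, edgeR adjusted p = 0.045). FLNC, the muscle filamin, rose by 0.74 on the log2 scale (SE 0.06, edgeR adjusted p = 9.0e-15), and its CPM went from 117.7 ± 4.88 to 196.6 ± 2.76.

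**Figure D4:**
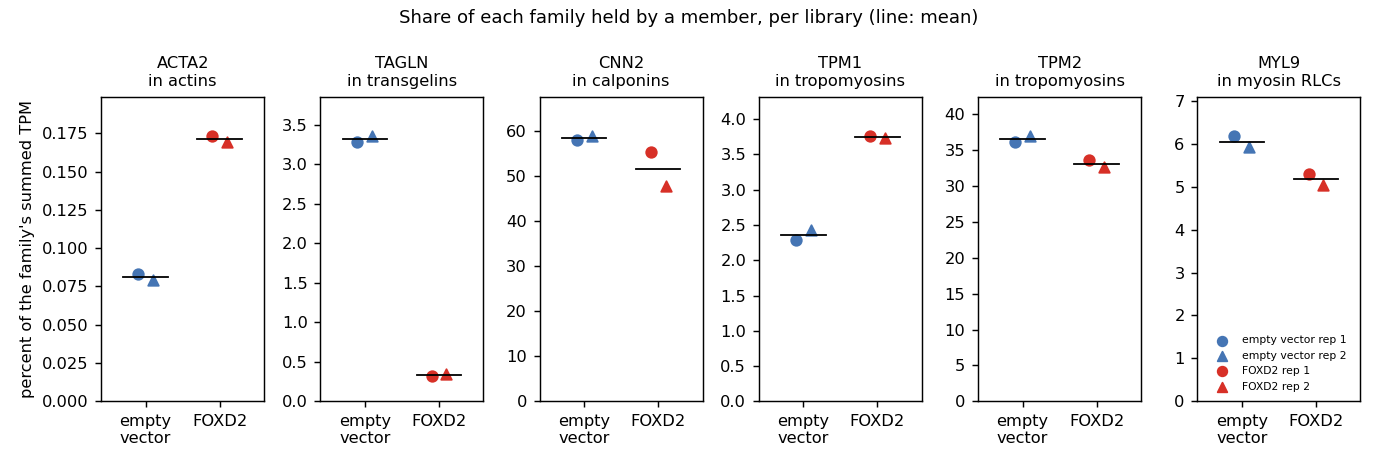
Share of the summed TPM of a family held by 1 member, in percent, per library, with the group mean as a line and each axis starting at 0. Circles are replicate 1 and triangles replicate 2. ACTA2 goes from 0.0812% to 0.171% of actins and TAGLN from 3.32% to 0.334% of transgelins.

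On the scale of TPM, which allows genes to be set side by side, TPM2 and FLNA were the highest members with the empty vector, at 434.5 and 442.2 TPM and at 355.9 and 324.7 TPM. TAGLN2 came next at 157.5 and 150.4 TPM, ahead of CNN2 at 113.3 and 115.9 TPM and MYL9 at 51.8 and 50.3 TPM. TPM1 (27.5 and 29.1 TPM), ACTA2 and TAGLN (5.34 and 5.22 TPM) followed, with ACTA2 and TAGLN close to each other. With FOXD2 the order at the top was different: TAGLN2 was at 474.1 and 428.1 TPM, above FLNA (365.9 and 351.7 TPM) and TPM2 (287.8 and 272.1 TPM) in both libraries. TAGLN2 and TPM2 thus exchanged places around FLNA.

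SRF itself did not pass the test. It was at 55.9 and 55.4 CPM with the empty vector and at 63.0 and 53.0 CPM with FOXD2. Its log2 fold change was 0.06 (SE 0.08, edgeR adjusted p = 0.56), and the sign changed without FOXD2 replicate 1 (-0.08). The coactivators MRTFA (0.20, edgeR adjusted p = 0.099) and MRTFB (-0.02, edgeR adjusted p = 0.83) did not pass, and MYOCD had 1 count in all, in FOXD2 replicate 1. MRTFA passed as higher without FOXD2 replicate 2 and with library sizes alone (edgeR adjusted p = 0.039 and 0.031). Of the ternary complex factors, ELK3 fell by 0.60 (SE 0.08, edgeR adjusted p = 1.9e-09), while the values of ELK1 (0.15) and ELK4 (-0.17) did not pass. Both passed without FOXD2 replicate 2 (edgeR adjusted p = 0.032 and 0.015), ELK1 also with library sizes alone (edgeR adjusted p = 0.023) and ELK4 also with a crossed replicate block (edgeR adjusted p = 0.026). The LIM protein genes listed with SRF and its cofactors went both ways: FHL2 (0.43) and CSRP1 (0.29) rose and CSRP2 (-0.63) fell.

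Of 20 other genes listed by name as actin-linked SRF targets, 18 were tested. Of these, 7 rose and 6 fell (edgeR adjusted p under 0.05), with a median log2 fold change of -0.06. Of all genes tested 27.2% were higher and 26.4% lower, 53.5% in either direction. The balance of higher and lower was thus near the background. The share called in either direction was larger in this list, a difference that was not tested. The matricellular genes CCN2 (4.80, edgeR adjusted p = 3.9e-32) and CCN1 (1.11) rose most, and both are also targets of YAP. The LIM and actin-binding genes PDLIM5 (-0.80) and CALD1, caldesmon (-0.79), fell most. Of 10 genes listed by name as growth factor-linked SRF targets, 8 rose and none fell. Their median log2 fold change was 0.71, beside 0.0084 over all genes tested, of which 27.2% were higher. NR4A1 was at 1.71 and EGR2 at 1.46. The number that rose was 6 to 9 under the alternatives, 6 with DESeq2 and with limma on TPM. EGR2 had only 6 and 5 counts with the empty vector and 21 and 11 with FOXD2, and did not pass under 5 of 13 alternatives. These were without empty vector replicate 2 or FOXD2 replicate 1 (edgeR adjusted p = 0.095 and 0.28), DESeq2 (adjusted p = 0.2), and limma on TPM with pseudocounts of 1 and 0.1 (adjusted p = 0.18 and 0.14, log2 fold changes 0.29 and 0.84).

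**Figure D5:**
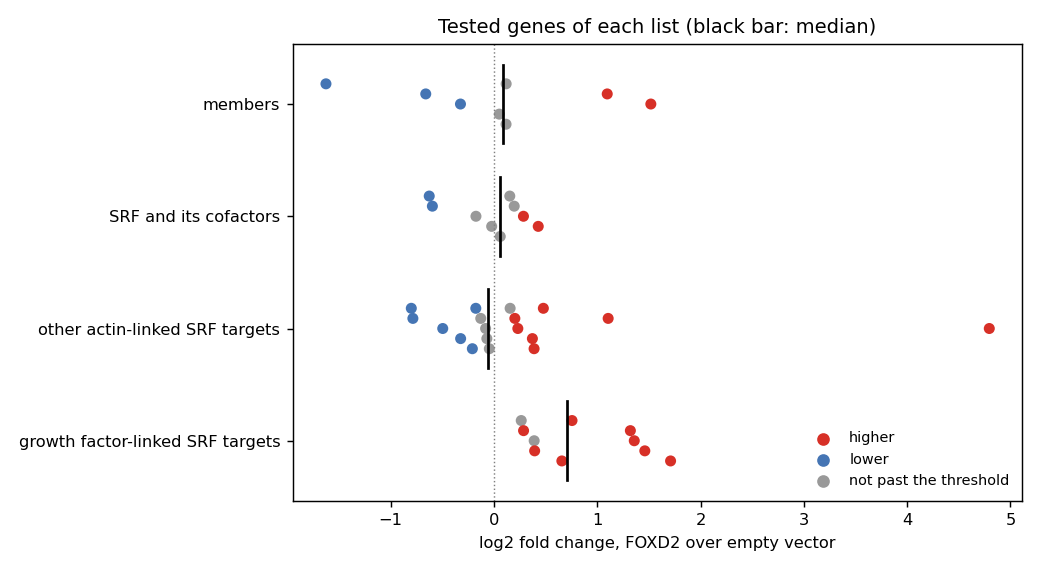
Log2 fold change of every tested gene of the members and of 3 other lists, with the median of each list as a black bar. Red marks genes past the threshold and higher, blue those lower, grey those that did not pass. Medians lie between -0.06 and 0.71, and the members lie on both sides of 0.

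Markers of cells that use these genes for contraction were mostly absent. Of 12 other smooth muscle markers, 8 had at most 10 counts in every library, and PLN, CASQ2, KCNMB1 and ITGA8 had 0 counts throughout. The list summed to 122.6 and 122.9 CPM with the empty vector and to 126.6 and 123.0 CPM with FOXD2, most of it from SMTN, which was higher (0.29, edgeR adjusted p = 3.6e-04; 0.092 with TPM and the smaller pseudocount). NPNT, a matrix protein gene, fell by 2.23. DES was detected, with 41 and 41 counts with the empty vector and 43 and 54 with FOXD2, and did not pass (edgeR adjusted p = 0.59). SYNPO2, with 21 and 18 counts against 12 and 14, did not pass either (edgeR adjusted p = 0.2). Of 12 striated muscle markers none was tested, and the list summed to at most 1.57 CPM. Of 10 fibroblast and pericyte markers, 7 had 0 counts throughout, among them COL1A2, PDGFRA, DCN and LUM. The list summed to 9.51 and 11.2 CPM with the empty vector and to 32.2 and 33.4 CPM with FOXD2, nearly all of it COL1A1 (log2 fold change 1.68, edgeR adjusted p = 6.6e-18). COL1A1 thus rose beside ACTA2, while the 9 other fibroblast and pericyte markers had at most 10 counts in every library.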

How the data were processed

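PolyA RNA libraries were made with a strand-specific kit, per the labels' protocols. The submitters' processing notes name GRCh38, STAR 2.7.2b and RSEM 1.2.31, without their settings; the annotation release and the strand setting of the counting are not given in the sources used here. The authors' tables hold, per the file headers, RSEM expected counts, TPM, mean transcript lengths and posterior errors of the counts. Of 60683 identifiers 60370 were matched to a symbol; positions are from GENCODE release 29.

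The deposited expected counts entered as integers after rounding. Groups were compared in R 4.3.3 by edgeR 4.0.16, quasi-likelihood, two-sided, with group as the term. Genes were kept by filterByExpr, scaled by TMM and fitted robustly, with Benjamini-Hochberg adjustment over 14470 genes and a threshold of 0.05. The procedure was first tested on simulated counts with few changed genes, balanced in direction. That test does not check the scaling where many genes change. SEs are the absolute log2 fold change over the root of F. CPM uses TMM-scaled library sizes, and family shares use TPM. Limits of 3 counts cover counting error only. Replicates differed by more than sampling noise (chi-square per degree of freedom 2.52 and 3.91). The labels do not say whether they came from separate cultures, so the p-values cover only differences among these libraries, possibly technical ones.

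The 10 members and the gene lists were chosen with earlier results of these data known. Genes were named by rule: FOXD2, the members, their family relatives, SRF and its cofactors, and up to 2 highest and 2 lowest past the threshold in each other list. Names of overlapping genes and of markers present or at 0 were added after their values were seen. Some items are not reported here. Alternatives were RLE factors, library sizes alone, DESeq2 1.42.0, limma-voom and limma 3.58.1 on log2(TPM + 1) and log2(TPM + 0.1), no filter, a filter of 1 CPM in 2 libraries, a replicate block, and each library left out.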

Additional observations from a re-analysis of the deposited data

How the results depend on the processing

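With 2 libraries per group, small changes rest on few residual degrees of freedom, and genes with few counts, such as ACTG2 and CNN1, were not tested. The counts of members were 2 to 4 higher (4 with library sizes alone, which added CNN2 and FLNA) and 3 lower under every alternative run. With library sizes alone 59.25% of the calls over all genes tested were higher, against 50.73% with TMM, and the median log2 fold change was 0.0738 against 0.0084. Without 1 library members were 2 to 3 higher and 3 lower. Genes called lower numbered 2424 and 2415 with limma on TPM (pseudocounts of 1 and 0.1) against 3816. With 1 library removed, the remaining library of its group was taken to vary as much as the intact pair; 3214 to 3605 genes were then higher and 3017 to 3612 lower. SRF cofactors called higher rose from 2 to 4 with library sizes alone or without FOXD2 replicate 2. CDX2 (-0.51) lost its call without empty vector replicate 2 (edgeR adjusted p = 0.061) and with TPM.

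Signs changed only for genes near 0 that had not passed. The log2 fold change of ACTG1 was 0.0249 with library sizes alone, 0.0574 with TPM and either pseudocount, and -0.18 to 0.0821 with 1 library left out. That of MRTFB was 0.0434 with library sizes alone, 0.19 and 0.21 with TPM (pseudocounts of 1 and 0.1) and -0.14 to 0.0896 with 1 library left out. MYL12A was 0.0381 with library sizes alone, and SRF -0.0757 to 0.18 with 1 library left out. Causes were not tested.

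The numbers of the replicates are shared between the groups, but the labels do not say that a number marks a shared batch. With the replicate block 7174 genes passed, with 2 members higher and 3 lower; TPM2 was then at -0.66. Deviations of same-numbered libraries correlated at -0.21 over 10395 genes, so a crossed pairing was added after seeing the data, and 8237 genes passed with it, with 2 members higher and 3 lower.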
